A study of Arabidopsis thaliana with 6 samples.

Results

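*BT1* to *BT5* are the BTB and TAZ domain genes of *Arabidopsis thaliana*, and their transcripts are described here in stems in which a form of the auxin response factor ARF5 had been activated. The genes were taken by locus identifier, *BT1* as AT5G63160, *BT2* as AT3G48360, *BT3* as AT1G05690, *BT4* as AT5G67480 and *BT5* as AT4G37610, and they make 5 of the 33318 gene identifiers in the read tables. They were chosen by their read counts, the total gene reads of the Dex and mock libraries described below, so their levels and differences are given as a description, without a p-value. All 5 passed the filter on low counts, among 19347 genes that did.

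RNA came from the second internode of plants of the Col-0 background, all of which carried *pPXY:GR-ARF5∆III/IV*. This transgene expresses, from the promoter of the cambium gene *PXY*, an ARF5 without its domains III and IV, which frees it from AUX/IAA repressors, fused to the glucocorticoid receptor part that keeps it inactive until dexamethasone (Dex) is given. The plants were dipped in 15 µM Dex or in mock solution and the internodes were taken 3 h later, with 3 libraries in each group. The comparison asks which transcripts differ after short activation of ARF5 in *PXY*-positive cells. The mock plants carried the transgene too and no Dex-treated plants without it were among the libraries, so an effect of Dex alone and of the activated protein cannot be told apart. Whole internodes were used, in which fewer cells of a type and less RNA per cell cannot be told apart. The methods describe pools of 3 plants per replicate for RNA preparation, but do not spell out whether each sequenced library is such a pool, so the p-values given for other genes measure the spread between these libraries, whatever their source.

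BT proteins join a BTB domain, through which they bind each other and the CULLIN3 scaffold of ubiquitin ligases, to a TAZ zinc finger domain and a calmodulin-binding region. They are short-lived proteins that also bind bromodomain proteins of the nucleus, and the genes act redundantly in the development of the gametophytes. *BT1* and *BT2* restrain nitrate uptake genes, and *BT2* is known as a gene whose transcript follows sugar supply and the time of day.

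Reads assigned to genes numbered 22871927 to 32099136 per library, with 96.8% to 97.1% mapped uniquely. Among the genes tested, 1295 passed an adjusted p of 0.05 in edgeR's quasi-likelihood test, 895 higher and 400 lower in Dex, so that 6.69% of the genes were called. Mock replicate 2 stood apart, with a correlation of log2 CPM (read counts scaled to a common library size) of 0.959 with mock replicate 1 and 0.955 with mock replicate 3, against 0.971 between those. Its correlation with each Dex library was 0.956, while mock replicates 1 and 3 had 0.936 to 0.951 with the Dex libraries. Without it 3477 genes were called, and the counts were 538 without mock replicate 1, 776 without mock replicate 3, 527 without Dex replicate 1, 407 without Dex replicate 2 and 426 without Dex replicate 3. The summed level of 4 green cortex markers was 8282 CPM in mock replicate 2, 14059 to 15153 CPM in the other mock libraries and 6452 to 9027 CPM in the Dex libraries. The other marker sums overlapped between the groups, with 313 to 413 CPM in mock and 315 to 390 CPM in Dex for 3 cambium markers, 4005 to 4566 and 3417 to 4510 CPM for 5 xylem markers, 499 to 563 and 478 to 521 CPM for 4 phloem markers, and 421 to 455 and 361 to 437 CPM for 4 epidermis markers, of which *PDF1* was at 0. Within the cambium and epidermis sums, *WOX4*, *ANT* and *FDH* did not overlap between the groups, as was found for 27.3% of all genes tested. *WOX4* went from 39.1 ± 7.41 CPM in mock to 30.4 ± 0.456 CPM in Dex, and *ANT* from 41.1 ± 3.36 to 47.7 ± 3.37 CPM. *FDH* went from 66.4 ± 4.03 to 53.7 ± 7.09 CPM (SD, n = 3 each). None of them passed in edgeR (adjusted p = 0.161, 0.263 and 0.161), and *PXY*, the largest part of the cambium sum, overlapped. Flower markers, of which *AG* was at 0, did not exceed 0.587 CPM. The part of these differences in the levels below was not tested.

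*BT1* and *BT2* are the closest pair by sequence. Their coding sequences were identical at 77.0% of 1057 aligned bases, against 67.8% for *BT4* and *BT5* and 59.3% to 63.7% for the other 8 pairs. The stretch below holds the longest identical run of *BT1* and *BT2*, 20 bases in capitals with 15 bases on each side, and it is shown because reads of close relatives could otherwise be mixed. It covers coding bases 208 to 257 of *BT1* and 238 to 287 of *BT2*, written 5′ to 3′ from the RefSeq annotation of TAIR10.1.
BT1: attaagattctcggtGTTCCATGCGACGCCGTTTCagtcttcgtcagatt
BT2: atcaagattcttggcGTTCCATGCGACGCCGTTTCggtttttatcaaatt

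No pair of the 5 annotated transcripts, untranslated parts included, shared a run as long as the 50-base reads, the longest being the 21 bases shared by *BT4* and *BT5*. All reads counted for *BT1*, *BT2*, *BT3* and *BT4* were uniquely mapped in all 6 libraries. For *BT5*, 82.4% to 100% of the reads were unique.

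In the RefSeq annotation of TAIR10.1, *BT1* lies on the minus strand at chr5:25333172-25335570, *BT2* on the minus strand at chr3:17907767-17910738 and *BT3* on the plus strand at chr1:1706736-1709360. *BT4* lies on the minus strand at chr5:26930539-26933352 and *BT5* on the minus strand at chr4:17670481-17672353. The exon models are those of the first listed transcript, of 3 for *BT1*, *BT2* and *BT4* and of 1 for *BT3* and *BT5*. In these, *BT1* and *BT2* had 5 exons, all with coding bases, whereas *BT3*, *BT4* and *BT5* had 5 exons of which the first held only untranslated sequence. Counted from the first exon with coding bases, the second measured 140 bases in *BT1*, 143 in *BT2* and 131 in *BT3*, *BT4* and *BT5*. The third measured 304 bases in *BT1* and *BT2*, 307 in *BT4* and *BT5* and 615 in *BT3*. The exon lengths in the deposited tables differed from these models in 4 of the genes and were the same, 1438 bases, for *BT5*.

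**Figure D1:**
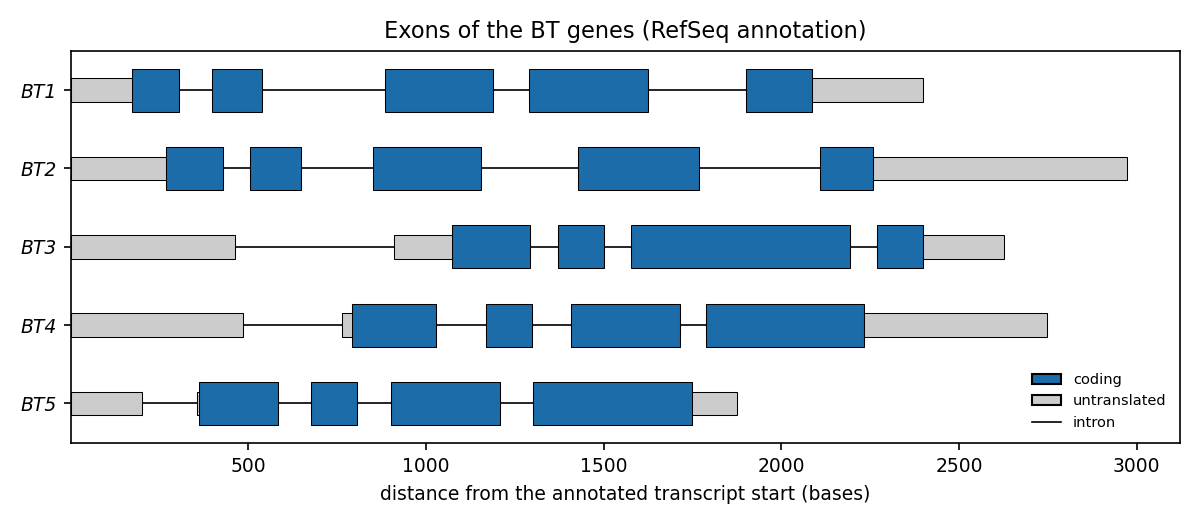
Exons of *BT1* to *BT5* drawn to scale from the first listed RefSeq transcript of each gene, with the distance from its annotated start in bases on the x axis and 1 gene per line. Wide boxes are coding, narrow boxes untranslated and lines introns. *BT1* and *BT2* share a layout of 5 coding exons, and *BT3*, *BT4* and *BT5* begin with an untranslated exon and have 4 coding exons.

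The 250 bases before the annotated start of *BT1* (chr5:25335571-25335820, minus strand) and *BT2* (chr3:17910739-17910988, minus strand) are shown because these genes lay at opposite ends of the family in the Dex to mock difference. Capitals mark the motifs found, written 5′ to 3′ along the gene.
BT1: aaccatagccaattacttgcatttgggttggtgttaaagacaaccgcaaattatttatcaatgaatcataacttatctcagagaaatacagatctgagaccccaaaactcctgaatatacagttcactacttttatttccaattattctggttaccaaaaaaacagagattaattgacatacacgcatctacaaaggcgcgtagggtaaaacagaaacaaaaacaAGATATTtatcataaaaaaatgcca
BT2: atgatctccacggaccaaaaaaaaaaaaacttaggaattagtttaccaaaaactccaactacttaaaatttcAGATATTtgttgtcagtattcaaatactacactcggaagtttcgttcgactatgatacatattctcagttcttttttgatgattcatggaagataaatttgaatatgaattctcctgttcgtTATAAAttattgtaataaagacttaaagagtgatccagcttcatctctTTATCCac

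Both strands were searched for TGTCTC and TGTCGG, which auxin response factors bind, for the G-box CACGTG, for AATATCT, the core of the evening element of clock-regulated genes, for the TATA box TATAAA, and for TTATCC, known from sugar-repressed genes. No match overlapped another, and AGATATT in the windows above is AATATCT read on the other strand. The evening element core was found in *BT1*, on the minus strand 25 bases before the start, and in *BT2*, on the minus strand 178 bases before it, and 2745 of 27443 promoters of this length held it. TTATCC was found on the plus strand in *BT2* (8 bases before the start) and on the minus strand in *BT4* (59 and 47 bases) and *BT5* (234 bases), and 12.5% of the promoters held it. The TATA box letters were found in *BT2* and *BT5*, on the plus strand at 56 and 28 bases, against 47.3% of all promoters. The auxin response motifs and the G-box, held in the order given by 10.9%, 4.16% and 6.49% of all promoters, were not in these windows of the 5 genes. A match or its lack describes the letters in the window and says nothing of binding.

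Compared per exon length, *BT1* and *BT4* were the abundant members and *BT2*, *BT3* and *BT5* the scarce ones. *BT1* was the highest in every library, with 26.7, 29.4 and 37.4 RPKM (exon reads scaled by exon length and by library total) in mock replicates 1, 2 and 3 and 60.1, 53.8 and 53.4 RPKM in Dex replicates 1, 2 and 3. *BT4* followed with 16.2, 21.1 and 17.6 RPKM in mock and 19.0, 24.4 and 21.2 RPKM in Dex. The lowest *BT1* value was thus above the highest *BT4* value in both groups, and *BT4* was above the remaining members in every library.

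The scarce members could not be ordered among themselves. In mock, the levels per length were 2.84 ± 1.15 RPKM for *BT2*, 2.52 ± 0.296 RPKM for *BT3* and 2.32 ± 0.401 RPKM for *BT5* (SD, n = 3 each). In Dex they were 1.55 ± 1.04 RPKM for *BT2*, 2.26 ± 0.172 RPKM for *BT3* and 1.81 ± 0.761 RPKM for *BT5*. The ranges overlapped for each neighbouring pair in this order within each group, so these levels did not differ beyond their spread. Among 21525 genes with an RPKM above 0 in mock, *BT1* stood at percentile 79.8, *BT4* at 68.1, *BT2* at 29.2, *BT3* at 27.8 and *BT5* at 26.7.

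Together the 5 genes reached 51.1, 58.8 and 61.4 RPKM in the mock libraries and 83.5, 83.3 and 82.0 RPKM in the Dex libraries. The sums of the groups were apart, and they were carried by *BT1*. Its part of the family sum was 54.3 ± 5.72% in mock and 67.2 ± 4.12% in Dex, while that of *BT4* was 32.1 ± 3.66% in mock and 26.0 ± 3.25% in Dex (SD, n = 3 each).

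**Figure D2:**
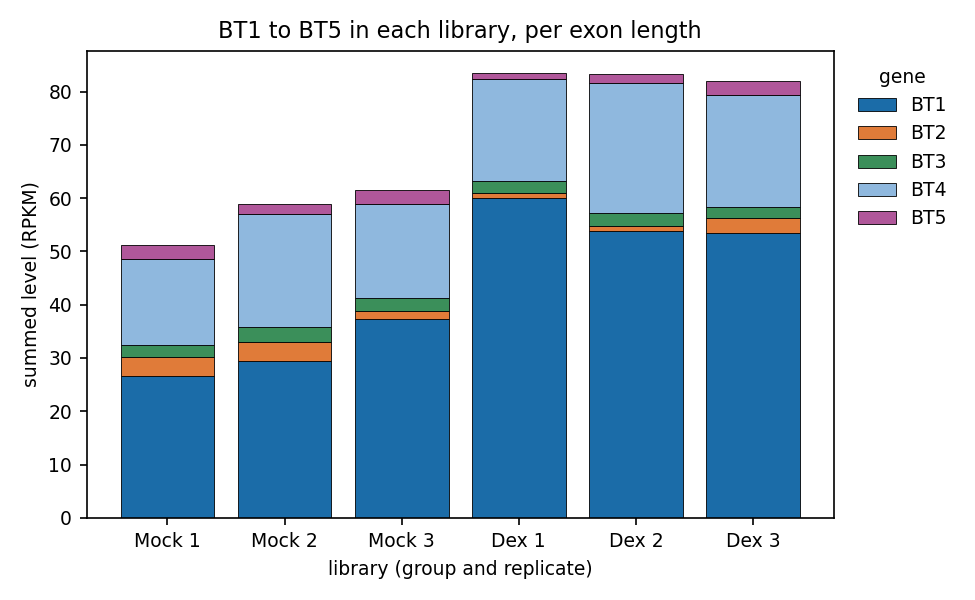
Stacked levels of *BT1* to *BT5* in each library in RPKM (y axis, linear from 0), with 1 bar per library and 1 colour per gene. The bars end at 51.1 to 61.4 RPKM in mock and 82.0 to 83.5 RPKM in Dex, and the *BT1* segment is the largest in all 6.

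*BT1* encodes a protein of nucleus and cytoplasm that the proteasome degrades. It measured 40.3, 43.7 and 55.2 CPM in mock replicates 1, 2 and 3 and 85.5, 78.5 and 80.3 CPM in Dex replicates 1, 2 and 3, from 892 to 2554 reads per library. All Dex libraries lay above all mock libraries, with mock replicate 3 the nearest. The means were 46.4 ± 7.83 CPM in mock and 81.4 ± 3.63 CPM in Dex (SD, n = 3 each), a log2 difference of 0.81 (SE 0.127, edgeR fit) or 1.75-fold. Leaving out each library in turn gave log2 differences of 0.71 to 0.96, and 0.77 without mock replicate 2, the library that stood apart. Of the 5 members, 1 was called higher, *BT1*, and 0 lower, beside 4.63% of all genes called higher and 2.07% called lower, from which nothing is read since the members were chosen on this comparison.

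The reads of *BT1* that fell outside its exons were higher as well. They came to 34, 70 and 49 in the mock libraries and 99, 82 and 140 in the Dex libraries. This gave 2.12 ± 0.595 CPM in mock and 3.84 ± 0.738 CPM in Dex (SD, n = 3 each), without overlap between the groups. As a share of *BT1* reads they made 3.81% to 6.23% in mock and 3.83% to 5.48% in Dex, so the share overlapped while the amount did not. Of the exon reads of *BT1*, 11.4% to 21.1% spanned an exon junction in mock and 16.8% to 19.4% in Dex.

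*BT2*, part of the telomerase activation pathway that the zinc finger protein TAC1 controls, had the widest spread of the family. It measured 5.37, 5.14 and 2.28 CPM in mock and 1.42, 1.47 and 4.50 CPM in Dex, from 34 to 143 reads per library. Replicates 1 and 2 were higher in mock and replicate 3 was higher in Dex, so the groups overlapped. The 95% Poisson interval, which covers counting error only, was 1.71 to 2.99 CPM in mock replicate 3 and 3.79 to 5.30 CPM in Dex replicate 3, so each lay beyond counting error from the other libraries of its own group.

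The means of *BT2* were 4.26 ± 1.72 CPM in mock and 2.46 ± 1.76 CPM in Dex (SD, n = 3 each), a log2 difference of -0.78 (SE 0.507). It became -1.56 without Dex replicate 3 and ranged to -0.50 when another library was left out. The coefficient of variation of *BT2* was 40.3% in mock and 71.7% in Dex, where counting alone gives 9.93% and 11.8%. Its within-group SD on the log2 scale, 0.83, was at percentile 93.9 of 1516 genes of like level, whose median was 0.36.

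*BT3*, which acts with *BT2* in the male gametophyte, had the smallest within-group SD of the family on the log2 scale. It measured 3.97, 4.83 and 4.01 CPM in mock and 3.70, 3.96 and 3.46 CPM in Dex, from 88 to 124 reads per library. All Dex libraries lay below all mock libraries, but by 0.0132 CPM at the closest, which is less than 1 read. The log2 difference was -0.20 (SE 0.217), and its within-group SD of 0.13 was at percentile 3.82 of 1782 genes of like level. The coefficient of variation of *BT3* was 11.3% in mock and 6.75% in Dex, where counting alone gives 9.92% and 9.89%. In Dex that of *BT1* was smaller, 4.45%. Groups without overlap were found for *BT1* and *BT3*, 2 of the 5 members, and for 27.3% of all genes tested, 15.2% higher and 12.1% lower in Dex.

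*BT4*, whose product is found in the cytoplasm, measured 29.8, 37.5 and 31.8 CPM in mock and 32.8, 43.6 and 38.2 CPM in Dex. Replicate 2 was the highest in each group and the groups overlapped. The means were 33.0 ± 3.97 CPM and 38.2 ± 5.37 CPM (SD, n = 3 each), a log2 difference of 0.21 (SE 0.136) that ranged from 0.11 to 0.31 when each library was left out.

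*BT5*, the closest relative of *BT4*, measured 3.75, 2.65 and 3.75 CPM in mock and 1.58, 2.38 and 3.84 CPM in Dex, from 38 to 122 reads per library. Dex replicate 3 was the highest of all and Dex replicate 1 the lowest, so the Dex group enclosed the mock group. The log2 difference was -0.37 (SE 0.355), ranging from -0.77 to -0.11 with each library left out.

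**Figure D3:**
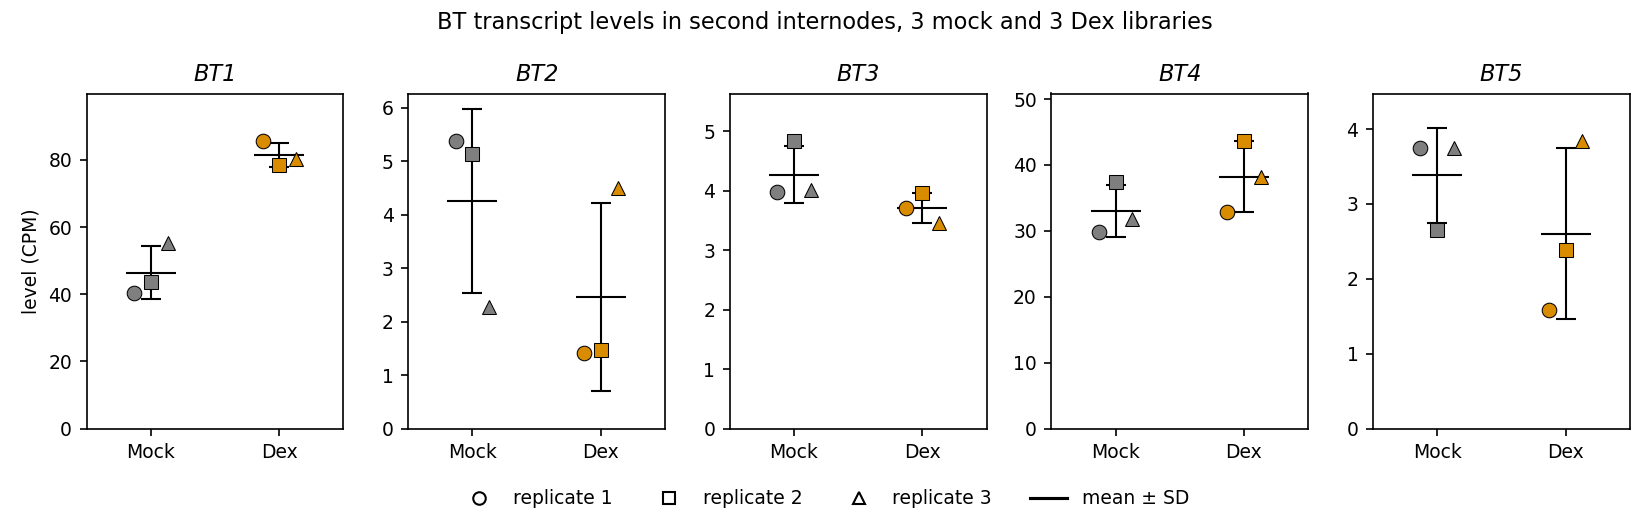
Level of each BT gene in CPM (y axes, linear from 0, a scale for each gene) in the mock and Dex libraries, with a symbol for each replicate number and bars for the mean and SD of 3 libraries. *BT1* lies at 40.3 to 55.2 CPM in mock and 78.5 to 85.5 CPM in Dex, while for *BT2*, *BT4* and *BT5* the groups overlap.

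The difference of each member from the others was not tested, since the members were chosen with it known. In the distribution of log2 differences over all genes tested, *BT1* was at percentile 95.7, *BT4* at 75.1, *BT3* at 25.2, *BT5* at 14.3 and *BT2* at 4.44. The closest pair by sequence, *BT1* and *BT2*, thus stood at the ends of the family, though *BT2* overlapped between the groups. Over the 6 libraries, 3 mock and 3 Dex, so that the difference between the treatments enters each value, the log2 CPM of *BT1* and *BT2* had a correlation of -0.70, *BT1* and *BT3* also -0.70, and *BT2* and *BT5* 0.67, and the other 7 pairs lay between -0.48 and 0.48.

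Genes whose pattern over the 6 libraries was most like that of each member were sought among the tested genes, 12740 or 12741 for each member, with a mean of at least 10 CPM. For *BT1* these were AT3G47510, *PAR2* and *TRM19*, with correlations of log2 CPM of 0.998, 0.996 and 0.996. *TRM19*, of the TON1-recruiting motif family, measured 33.8 ± 4.11 CPM in mock and 56.9 ± 2.68 CPM in Dex (SD, n = 3 each), and *PAR2* encodes a small protein of shade responses.

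For *BT2* the likest genes were *VAMP714*, AT4G05070 and AT1G19110 (0.980, 0.979 and 0.971). For *BT3* they were *ISA1*, *DHS2* and AT1G22930 (0.988, 0.985 and 0.982). For *BT4* they were AT4G27680, *ISA3* and AT3G05570 (0.991, 0.990 and 0.986). *ISA1* and *ISA3* encode isoamylases that debranch starch. For *BT5* they were AT1G09870, AT4G17100 and AT1G62610 (0.996, 0.990 and 0.986). A correlation above 0.95 was reached by 178 genes with *BT1*, 7 with *BT2*, 52 with *BT3*, 25 with *BT4* and 67 with *BT5*, and with 6 libraries and so many genes values of this size describe likeness only.

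None of the 12 tested genes of 15 listed partners of BT proteins passed the test in either direction, beside 6.69% of all genes. At that share a list this short can hold no call, so nothing is read from it. At an unadjusted p under 0.05 there were 1 higher and 1 lower, and DESeq2 called 1 lower. Their median log2 difference was -0.03, against -0.01 over all genes tested. *CAM1* and *CAM3*, calmodulin genes and the most abundant of the list, had log2 differences of 0.04 (adjusted p = 0.829) and 0.24 (adjusted p = 0.213). *CUL3A*, the scaffold of the ligase, measured 86.9 ± 0.661 CPM in mock and 81.6 ± 3.33 CPM in Dex. *BET10*, a bromodomain partner chosen after its values were seen, measured 47.0 CPM in mock and 34.2 CPM in Dex on average, the gene lower at an unadjusted p of 0.0101. *TAC1*, the regulator upstream of *BT2* in telomerase activation, and *TERT*, the catalytic subunit of telomerase, were under 1 CPM in every library and were not tested. The RBX1-like gene AT3G42830 had no reads, which allows up to 0.0943 to 0.135 CPM per library (3 reads), counting error only.

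Among 20 other genes of BTB adaptor proteins, 1 rose and 0 fell, beside 6.69% of all genes called. Their median log2 difference was -0.08. The gene that rose was *NPY1*, whose product acts with PIN auxin carriers in organ formation. It went from 21.7 ± 2.18 to 36.5 ± 2.65 CPM (log2 difference 0.75, SE 0.117, adjusted p = 0.00800), and it missed the threshold without Dex replicate 2 (adjusted p = 0.0510). Without that library none of the 20 was called, and without mock replicate 2 there were 4. The abundant *RPT2*, of phototropism, and *EOL1*, of ethylene synthesis control, did not pass (adjusted p = 0.113 and 0.154). The other TAZ domain proteins, histone acetyltransferases of the HAC family, are encoded by 5 genes, of which 4 were tested. None of these passed in edgeR, in DESeq2 or at an unadjusted p under 0.05. With 4 genes, beside 6.69% of all genes called, nothing is read from this. *HAC1* and *HAC12* had log2 differences of 0.04 and 0.10.

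Of 27 genes of nitrate uptake and assimilation, 23 were tested, 2 rose and 1 fell, beside 6.69% of all genes called. Their median log2 difference was 0.09. *NRT3.1*, the partner protein of high-affinity nitrate transporters, rose from 19.1 ± 0.600 to 29.9 ± 3.75 CPM (log2 difference 0.65, SE 0.122, adjusted p = 0.0181). *UPM1*, a siroheme synthesis enzyme needed for nitrite reductase, rose from 68.2 ± 4.53 to 97.8 ± 7.30 CPM (0.52, SE 0.0995, adjusted p = 0.0187). *CLCA*, the nitrate/proton exchanger of the vacuole membrane, fell from 136 ± 12.1 to 84.0 ± 5.84 CPM (-0.70, SE 0.106, adjusted p = 0.00727). The transporter genes *NRT2.1* and *NRT2.4*, which *BT1* and *BT2* restrain, were under 1 CPM in every library of these stems and were not tested. The calls of this list rested on single libraries, with 1 gene called without mock replicate 1, 7 without mock replicate 2 and 0 without Dex replicate 2.

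Of 18 genes of sugar starvation, 17 were tested, 7 fell and 1 rose, beside 2.07% of all genes called lower and 4.63% called higher. Their median log2 difference was -0.99. The list was chosen with earlier results of these data known. The median of the 4 green cortex markers was -0.63, and its part in this list was not tested. *TPS8*, *TPS9* and *TPS10*, trehalose phosphate synthase-like genes, fell from 18.2 ± 2.75 to 6.78 ± 0.739 CPM (log2 difference -1.42, adjusted p = 0.00150), from 10.7 ± 1.64 to 3.40 ± 0.603 CPM (-1.66, adjusted p = 0.00298) and from 56.1 ± 13.4 to 28.1 ± 3.35 CPM (adjusted p = 0.0144). *TPS11*, *bZIP1*, *bZIP63* and *AKINBETA1* fell as well. *bZIP11*, whose translation sucrose represses, rose from 72.2 ± 1.17 to 121 ± 11.2 CPM (0.74, adjusted p = 0.00382). *BT2*, known to follow sugar supply, had overlapping groups and a log2 difference of -0.78. *DIN6* (-0.75, adjusted p = 0.345) and *DIN10* (-1.16, adjusted p = 0.0807) of this list, chosen after their values were seen, overlapped too. Of the 17 tested genes, 9 lay lower in Dex without overlap and 1 higher, beside 12.1% and 15.2% of all genes tested. The number called was 4 without mock replicate 1, 4 without Dex replicate 1, 3 without Dex replicate 2 and 4 without Dex replicate 3.

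None of the 20 circadian clock genes passed in edgeR, beside 6.69% of all genes. At an unadjusted p under 0.05 there were 1 higher and 4 lower, and DESeq2 called 2. Uniquely mapped reads, exon reads, no filter on low counts and limma-voom each called 1, and 3 were called without mock replicate 2. The morning gene *LHY*, chosen after its values were seen, measured 2.57, 4.05 and 1.94 CPM in mock and 6.20, 7.04 and 5.63 CPM in Dex, without overlap. Its log2 difference was 1.13 (adjusted p = 0.0530), and it was called in 7 of 14 other fits (adjusted p = 0.00470 to 0.174). The abundant *GI* and *LUX* had log2 differences of -0.19 and -0.19 (adjusted p = 0.486 and 0.288), and the median of the list was -0.15. Of 12 genes of touch and wounding, 10 were tested and 1 was called, beside 6.69% of all genes. It was the wall enzyme gene *TCH4*, which rose from 3.91 ± 1.24 to 14.8 ± 3.56 CPM (log2 difference 1.91, adjusted p = 0.00541). The calmodulin-like *TCH3* and the jasmonate repressor gene *JAZ1* did not pass (adjusted p = 0.379 and 0.563).

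Of 11 genes of the auxin response, 9 rose and 0 fell, beside 4.63% of all genes called higher and 2.07% called lower. Their median log2 difference was 1.37. This list too was chosen with earlier results of these data known. *GATA23* measured 0.390 ± 0.0756 CPM in mock and 15.0 ± 1.90 CPM in Dex (log2 difference 5.23, adjusted p = 1.5e-05). *IAA30* rose by 2.48 and *WRKY23* by 2.09 on the log2 scale, and *ATHB8*, a direct target of ARF5, rose from 124 ± 16.1 to 265 ± 10.6 CPM (adjusted p = 0.00124). The log2 difference of *BT1* of 0.81 lay between those of these genes and that of *IAA1*, which was at the threshold (0.65, adjusted p = 0.0493) and missed it in 9 of 14 other fits, where adjusted p reached 0.166.

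**Figure D4:**
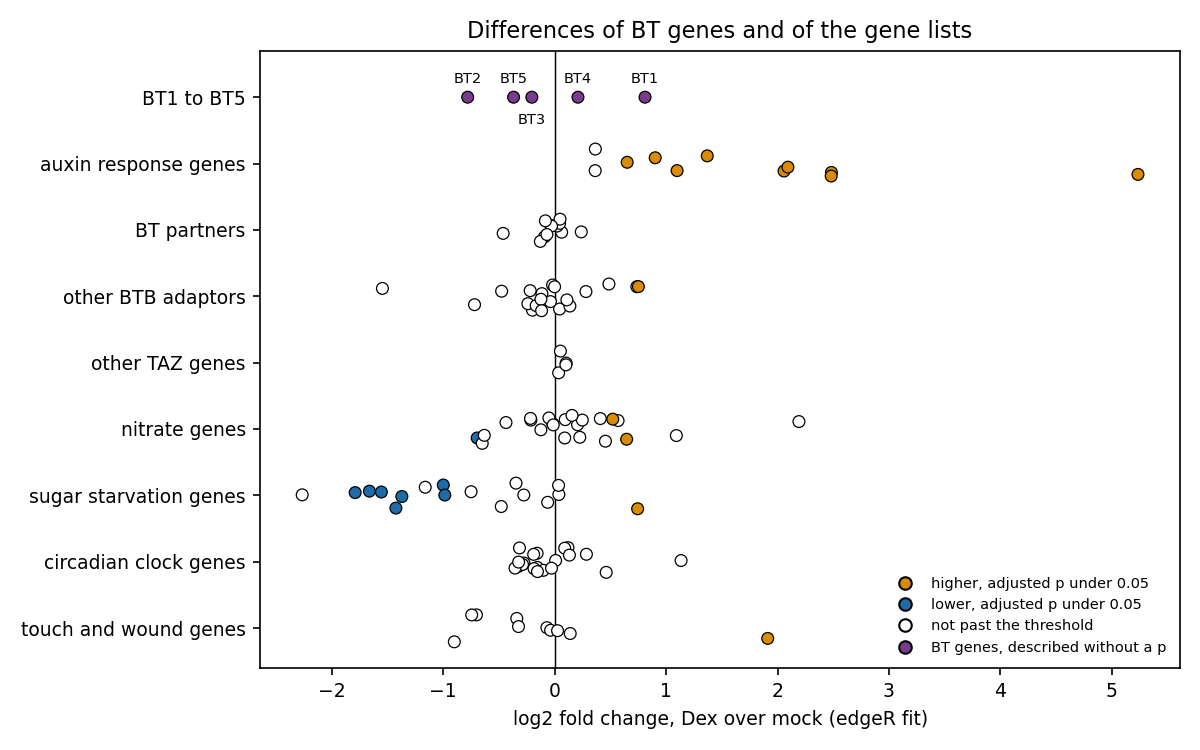
Log2 difference of Dex over mock from the edgeR fit (x axis) for the BT genes and for each tested gene of 8 lists (lines), with filled orange or blue points for genes past an adjusted p of 0.05, open points for the rest and purple points for the BT genes, which are described without a p-value. The BT genes run from -0.78 to 0.81. Called higher are 9 of 11 auxin response genes, beside 4.63% of all genes tested. Called lower are 7 of 17 sugar starvation genes, beside 2.07% of all genes tested.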

How the data were processed

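Single-end reads of 50 bases from strand-marking libraries were aligned to TAIR10 by the authors with CLC Genomics Workbench. The authors deposited gene, exon and unique read counts for each gene and RPKM values, which are exon reads scaled by exon length and library total. Whether strand was used in counting is not given in the sources used here. Counts over whole genes were tested here with edgeR 4.0.16 (quasi-likelihood, TMM, R 4.3.3), after a filter (minimum count 10, total 15), with Benjamini-Hochberg adjustment over 19347 genes and a threshold of 0.05. CPM values use TMM-scaled totals (factors 0.969 to 1.04). Dropped were 5 entries without a gene name (0.0803% to 0.0998% of reads). Of 33318 identifiers, 32828 were in the RefSeq annotation of TAIR10.1, and coding sequences were aligned with Biopython. DESeq2 1.42.0, limma 3.58.1 and other settings were alternatives. On simulated data the test recovered 34.3% of 1.5-fold, 76.1% of 2-fold and 100% of 4-fold changes, so smaller differences are often missed. Of its 154 calls, 14 fell on unchanged genes. The changes were set only in genes with a mean level above those of *BT2*, *BT3* and *BT5*, so these rates do not cover such scarce genes. The members and lists were chosen with earlier results of these data known. Named from each list were up to 4 called genes of smallest adjusted p and, with fewer than 2 called, the 2 most abundant, and for each member the 3 genes of likest pattern. *CUL3A*, *BET10*, *IAA1*, *LHY*, *DIN6*, *DIN10*, the single markers *WOX4*, *ANT* and *FDH*, and the other genes named without a full set of values were added after their values were seen.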

Additional observations from a re-analysis of the deposited data

How the results depend on the processing

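The log2 differences of *BT1* to *BT5* kept their sign under all 14 alternatives tried for each and moved by less than 1 SD between replicates. Each library left out in turn gave 0.71 to 0.96 for *BT1*, -1.56 to -0.50 for *BT2*, -0.26 to -0.11 for *BT3*, 0.11 to 0.31 for *BT4* and -0.77 to -0.11 for *BT5*. Replicate numbers were shared by the groups. Deviations from the group means had correlations of -0.0989, 0.000707 and 0.187 between same-numbered libraries. Between differently numbered libraries they ran from -0.2255 to 0.2046. With 3 libraries per group these values cannot decide whether the libraries were paired. With a replicate block 874 genes were called in place of 1295, with 1 clock gene and 2 touch genes. DESeq2 called 2347 genes, 1 BT partner, 4 BTB adaptors, 7 nitrate and 2 clock genes. At an unadjusted p under 0.05 there were 4377 genes, 2 partners, 6 BTB adaptors, 10 nitrate and 5 clock genes. Uniquely mapped reads, exon reads, no filter on low counts and limma-voom each called 1 clock gene. With libraries left out the ranges were 407 to 3477 genes, 0 to 4 BTB adaptors, 0 to 7 nitrate, 3 to 9 sugar starvation and 0 to 3 clock genes. The cause was not tested, and fewer libraries enter these fits. *UPM1* missed the threshold with the block (adjusted p = 0.0504) and without mock replicates 1 or 3 or Dex replicates 2 or 3, *NRT3.1* without mock replicate 1 or Dex replicates 1 or 2, *CLCA* without Dex replicate 2 (0.0502), and *TPS10* without mock replicate 1 or any Dex library. The auxin response list had 8 calls in place of 9 where *IAA1* missed the threshold, with RLE factors, library totals, limma-voom, the replicate block, and with any library other than mock replicate 2 left out. *BT2*, *BT3* and *BT5* rest on 34 to 143 reads per library, which limits what can be seen of them.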

Other observations

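*BT4* and *BT5* each overlap a gene on the plus strand at their 3′ end. *FH6*, a formin gene that shares 18 bases with *BT4*, measured 92.0, 89.4 and 97.7 CPM in mock and 108, 117 and 116 CPM in Dex, so its groups were apart while those of *BT4* overlapped. AT4G37608, which shares 151 bases with *BT5*, measured 3.29, 3.08 and 3.70 CPM in mock and 3.12, 3.92 and 2.92 CPM in Dex, without the low value that *BT5* had in Dex replicate 1. Whether reads of the shared bases were divided by strand is not given in the sources used here. For *BT2*, 0% to 14.7% of the reads per library fell outside its exons, the highest share being 14.7% in Dex replicate 1 and the next 11.2% in Dex replicate 3.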
